A study of Mus musculus with 10 samples.

Results

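The Bcl2 family decides whether a stressed cell opens its mitochondria and dies, and 10 of its genes were followed here in macrophages from melanomas that had become resistant to targeted therapy. The genes were Bik, Bcl2l11, Bbc3, Pmaip1 and Bid, which promote death, Bcl2, Bcl2l1 and Mcl1, which oppose it, and Bax and Bak1, which carry it out. They are 10 of the 55359 genes in the count files, and all 10 were among the 14374 that passed a filter on low counts and were tested. They were chosen by symbol, with Bik selected on its difference between the 2 genotypes in these same libraries and the other 9 taken as its relatives. The difference of Bik is therefore given as a description with no test.

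The 5 Ccr2 knockout libraries came from male mice homozygous for an RFP allele of Ccr2 (Ccr2RFP/RFP). The 5 control libraries came from male mice heterozygous for it (Ccr2RFP/+), so every mouse carried the RFP allele and no library was wild type at Ccr2, although the titles abbreviate the control group as WT. All mice received Braf and Mek inhibitors each day, the tumours are described as resistant or rebound, the series title names them as Braf-mutant melanoma, and age is not given in the sources used here. Cells carrying F4/80, a surface protein of mouse macrophages, were sorted by flow cytometry and their polyadenylated RNA was sequenced in bulk. The labels leave unsaid whether each library is a separate animal, and p-values here measure only the spread among these libraries, which may be technical.

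Ccr2, the chemokine receptor that inflammatory monocytes use to exit bone marrow, had 147 to 261 counts per knockout library and 2225 to 7270 counts per control library. It averaged 4.72 ± 1.41 CPM in knockout libraries and 119 ± 45.9 CPM in control libraries (SD, n = 5 each), where CPM is a count scaled to library size, with TMM, a correction for composition. The log2 fold change of Ccr2 was -4.66 with a standard error (SE) of 0.33, and it passed the threshold of 0.05 on the edgeR adjusted p. Libraries held between 34639808 and 43360206 gene counts. The pair of control libraries 1 and 2 and the pair of control libraries 3 and 4 were closer than any other pair, with a median chi-square per gene of 2.83 and 2.74, where sampling noise alone gives 0.455. The next closest pair within a group was knockout libraries 4 and 5 at 7.10, and knockout library 2 stood closer to control library 3 (6.06) than to any knockout library. Where summing the close control pairs, or leaving out knockout libraries 4 and 5, ended the call of a family or pathway gene or moved its printed log2 fold change by over 1.5 times, the value so obtained is given beside it. Adgre1, which encodes F4/80, was abundant in every library, at 1562 to 2020 CPM in knockout libraries and 1704 to 1981 CPM in control libraries.

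In the mitochondrial pathway of apoptosis, the anti-apoptotic proteins Bcl2, Bcl-xL (made from Bcl2l1) and Mcl1 hold the effectors Bax and Bak in check. BH3-only proteins, which sense damage, stress or loss of growth signals, bind the groove of the anti-apoptotic proteins with a short helix called the BH3 domain, and some of them also activate the effectors directly. Freed effectors form pores in the outer mitochondrial membrane, cytochrome c leaks out and caspases are activated. Myeloid cells use this balance to set their lifespan, and loss of Mcl1 in mouse myeloid cells is known to deplete neutrophils.

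The core of the BH3 domain is what these proteins share, and it is shown because it is the stretch by which Bik belongs with the others. It is printed for 9 of the 10 members, without Pmaip1. Each line gives 27 coding bases from GENCODE transcripts on GRCm38, read 5′ to 3′ on the coding strand. Capitals mark the codons of the conserved leucine and of the small residue and aspartate that follow it.
Bik (chr15:83543084-83543110, plus strand, exon 3): CTGgcctgcatcGGCGATgagatggac
Bid (chr6:120897289-120897315, minus strand, exon 4): CTCgcccaaataGGCGATgagatggac
Bcl2l11 (chr2:128147150-128147176, plus strand, exon 3): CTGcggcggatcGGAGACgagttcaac
Bbc3 (chr7:16313773-16313799, plus strand, exon 3): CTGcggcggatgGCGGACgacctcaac
Bcl2 (chr1:106712575-106712601, minus strand, exon 1): CTCcgccgggctGGGGATgacttctct
Bcl2l1 (chr2:152829697-152829723, minus strand, exon 2): CTGagagaggcaGGCGATgagtttgaa
Mcl1 (chr3:95659436-95659462, plus strand, exon 1): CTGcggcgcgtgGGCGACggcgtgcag
Bax (chr7:45465997-45466023, minus strand, exon 3): CTCcggcgaattGGAGATgaactggac
Bak1 (chr17:27022531-27022557, minus strand, exon 4): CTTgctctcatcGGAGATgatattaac
All 9 stretches are in coding exons, and in Bik the first codon shown is codon 55 of 150. The script searched for a leucine, any 3 residues, a glycine or alanine and an aspartate, and each of the 9 genes printed held 1 match, while Pmaip1 held 2. That pattern alone is common, since 5179 of 21767 coding genes searched (23.8%) held it. Against the bases of Bik, the stretch of Bid was identical at 22 of 27 positions and that of Bak1 at 19, while that of Bcl2 was identical at 12 and those of the other 5 members at 14 to 17.

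Bik, a BH3-only gene whose protein is known in human cells to sit mainly in the membrane of the endoplasmic reticulum, was higher in every knockout library than in any control library. It had 6.41, 5.13, 6.26, 3.67 and 8.40 CPM in knockout libraries 1 to 5, against 0.663, 0.889, 0.886, 0.626 and 0.437 CPM in control libraries 1 to 5. The lowest knockout library, number 4, was still well above the highest control library, number 2. The mean was 5.97 ± 1.75 CPM in knockout libraries and 0.700 ± 0.191 CPM in control libraries (SD, n = 5 each), a ratio of 8.53. The log2 fold change was 3.09 with an SE of 0.29, and it lay between 2.94 and 3.23 under all 19 alternative settings, including the sums of closely alike libraries. In bulk RNA, more cells that express a gene and more RNA of it per cell cannot be told apart.

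These are low counts in large libraries. Bik was counted 292, 213, 247, 150 and 322 times in knockout libraries 1 to 5, and 25, 36, 31, 27 and 18 times in control libraries 1 to 5. The exact 95% Poisson interval, which covers counting error only, was 127 to 176 for the lowest knockout count and 25.2 to 49.8 for the highest control count. At most 1 read per library fell on the strand opposite to Bik. The nearest tested genes on either side in annotation order, Ttll1 and Mcat, each separated from Bik by 1 untested gene, were far closer between the genotypes. Ttll1, which adds glutamate chains to tubulin, averaged 15.3 ± 2.70 CPM in knockout libraries and 12.7 ± 1.21 CPM in control libraries (log2 fold change 0.27, SE 0.14, edgeR adjusted p = 0.374). Mcat, a mitochondrial enzyme of fatty acid synthesis, averaged 24.0 ± 4.15 CPM in knockout libraries and 19.9 ± 2.33 CPM in control libraries (log2 fold change 0.27, SE 0.14, edgeR adjusted p = 0.374).

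**Figure D1:**
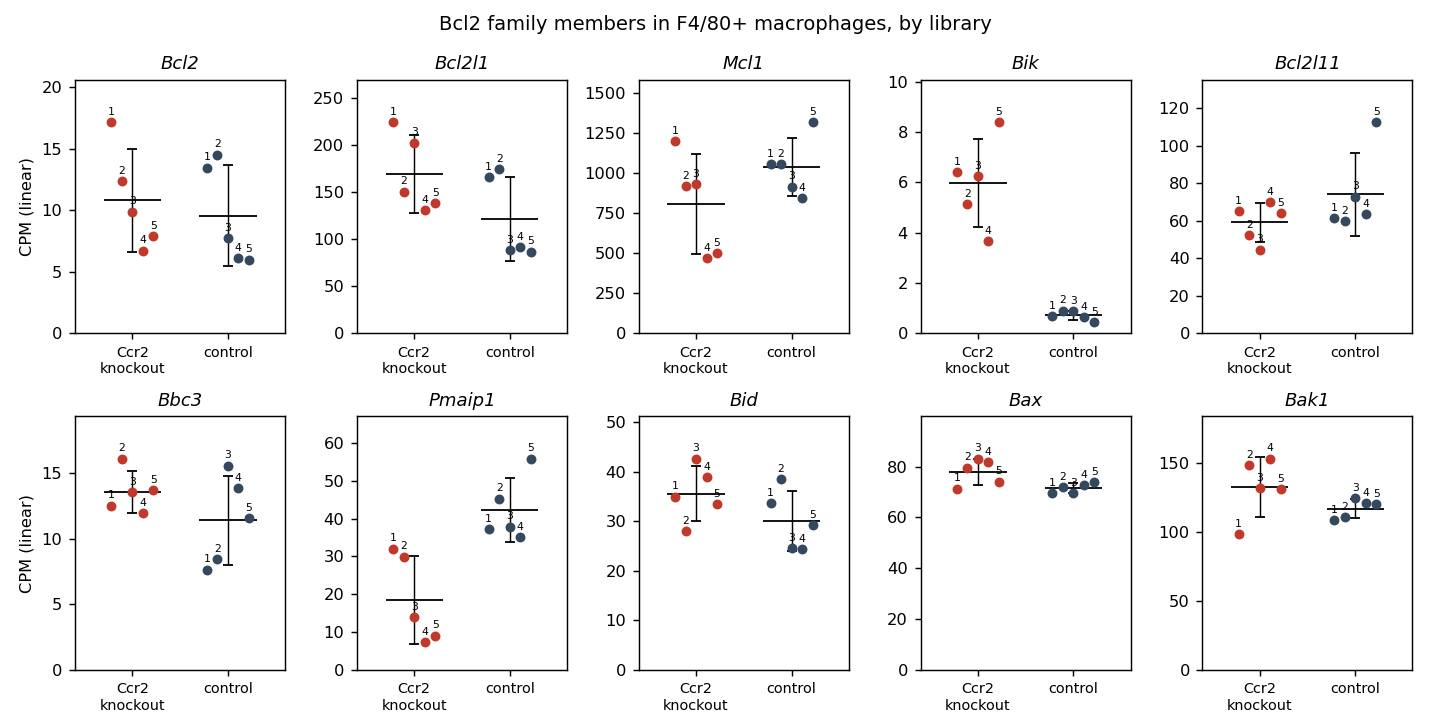
Level of each of the 10 Bcl2 family genes in CPM (linear axes that start at 0, with a different range in each panel) in each library, with Ccr2 knockout in red and control in dark blue; numbers beside points are library numbers, the horizontal line is the mean and the bar 1 SD over 5 libraries. The 5 knockout libraries lie above the 5 control libraries for Bik and below them for Pmaip1, and the groups overlap for the other 8 genes.

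Of the 10 members, Bik was the 1 past the threshold, while 203 of all 14374 genes tested passed it (1.41%), 125 of them higher (0.87%) and 78 lower (0.543%) in knockout macrophages. Because Bik was picked from this contrast, nothing is read from that count. The other 9 did not pass, with log2 fold changes of -1.19 to 0.48, a median of 0.18, and edgeR adjusted p of 0.172 to 0.833. Their median stood beside -0.00335 over all genes tested, and 6 of the 9 log2 fold changes were above 0. Of these 9, 1 had groups that did not overlap, Pmaip1, with every knockout library lower. Groups did not overlap for 4.7% of all genes tested, with every knockout library higher for 2.69%, as for Bik, from which nothing is read, and lower for 2.02%.

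Pmaip1, the BH3-only gene of Noxa, which binds chiefly Mcl1, was the other member whose groups did not overlap, with lower values in knockout libraries. It had 32.0, 29.9, 14.0, 7.29 and 9.03 CPM in knockout libraries 1 to 5, against 37.1, 45.3, 37.9, 35.1 and 55.8 CPM in control libraries 1 to 5. Knockout libraries 4 and 5 were the lowest of all and library 3 was also low, while libraries 1 and 2 came close to the control libraries. The mean was 18.45 ± 11.7 CPM in knockout libraries and 42.25 ± 8.51 CPM in control libraries (SD, n = 5 each), with a log2 fold change of -1.19 and an SE of 0.39. It missed the threshold in edgeR (adjusted p = 0.172) and passed it in DESeq2 (adjusted p = 0.046). Without knockout libraries 4 and 5 the log2 fold change of Pmaip1 was -0.72 (edgeR adjusted p = 0.384).

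The other 3 BH3-only members overlapped between the genotypes. Each had a log2 fold change smaller in size than the SD of its log2 CPM in control libraries. It was larger in size than the SD in knockout libraries. Bcl2l11, the gene of Bim, which is induced when growth signals are withdrawn and binds all the anti-apoptotic members, had 65.0, 52.1, 44.5, 70.0 and 64.0 CPM in knockout libraries 1 to 5, against 61.3, 59.6, 72.7, 63.6 and 113 CPM in control libraries 1 to 5. Control library 5 alone stood high and the remaining values of both groups overlapped. The log2 fold change of Bcl2l11 was -0.32 (SE 0.19, edgeR adjusted p = 0.445), and it was -0.11 without control library 5 and -0.49 with close control pairs and knockout libraries 4 and 5 each summed. Bbc3, the gene of Puma, a p53 target, had 11.96 to 16.1 CPM in knockout libraries and 7.64 to 15.6 CPM in control libraries (log2 fold change 0.25, SE 0.20). Bid, which is cleaved by caspase-8 and so links death receptors to mitochondria, had 27.9 to 42.6 CPM in knockout libraries and 24.3 to 38.4 CPM in control libraries (log2 fold change 0.24, SE 0.15). Neither Bbc3 nor Bid separated the genotypes.

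Among the anti-apoptotic members, Mcl1, whose protein is short-lived, was by far the most abundant. It had 1199, 919.5, 928.5, 469.5 and 499.7 CPM in knockout libraries 1 to 5, against 1055, 1054, 914, 843 and 1318 CPM in control libraries 1 to 5. Knockout libraries 4 and 5 were low, and the other 3 knockout libraries lay within the control range. The log2 fold change of Mcl1 was -0.37 (SE 0.25, edgeR adjusted p = 0.508), and without knockout libraries 4 and 5 it was -0.01.

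Bcl2l1, the gene of Bcl-xL, had 225, 150.5, 203, 131 and 138.5 CPM in knockout libraries 1 to 5, against 166, 174, 88.55, 91.25 and 86.7 CPM in control libraries 1 to 5. Control libraries 1 and 2 were as high as the middle of the knockout libraries, and control libraries 3, 4 and 5 were below every knockout library. The mean of Bcl2l1 was 169 ± 41.8 CPM in knockout libraries and 121 ± 44.7 CPM in control libraries (SD, n = 5 each; log2 fold change 0.48, SE 0.25, edgeR adjusted p = 0.383). Bcl2, the founding member of the family, had 17.2, 12.4, 9.88, 6.70 and 7.86 CPM in knockout libraries 1 to 5, against 13.5, 14.5, 7.74, 6.07 and 5.98 CPM in control libraries 1 to 5. The groups overlapped over almost their whole range (log2 fold change 0.18, SE 0.33, edgeR adjusted p = 0.833), and the direction depended on the libraries used: the log2 fold change of Bcl2 was -0.05 without knockout library 1 and 0.48 without knockout libraries 4 and 5. With close control pairs summed it was 0.28, and with knockout libraries 4 and 5 summed as well 0.38.

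Bax, the effector that moves to mitochondria when activated, varied least among libraries of the 10 members in both genotypes. It had 71.3, 79.6, 83.1, 81.7 and 74.1 CPM in knockout libraries 1 to 5, against 69.7, 71.8, 69.6, 72.7 and 74.0 CPM in control libraries 1 to 5. Its coefficient of variation was 6.48% in knockout libraries and 2.67% in control libraries, beside 38.9% in knockout libraries and 17.6% in control libraries for Mcl1 and 16.2% in knockout libraries and 6.01% in control libraries for Bak1. Between the genotypes Bax had a log2 fold change of 0.12 (SE 0.07, edgeR adjusted p = 0.422). Bak1, the effector that sits in the mitochondrial membrane, had 98.2 to 153 CPM in knockout libraries and 108 to 124 CPM in control libraries (log2 fold change 0.18, SE 0.12, edgeR adjusted p = 0.478). Without knockout libraries 4 and 5 the log2 fold change of Bak1 was 0.12. Counted without regard to strand, Bak1 kept 71.2% to 74.8% of its reads, with Ggnbp1 overlapping it on the opposite strand, and its log2 fold change was also positive in those counts.

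**Figure D2:**
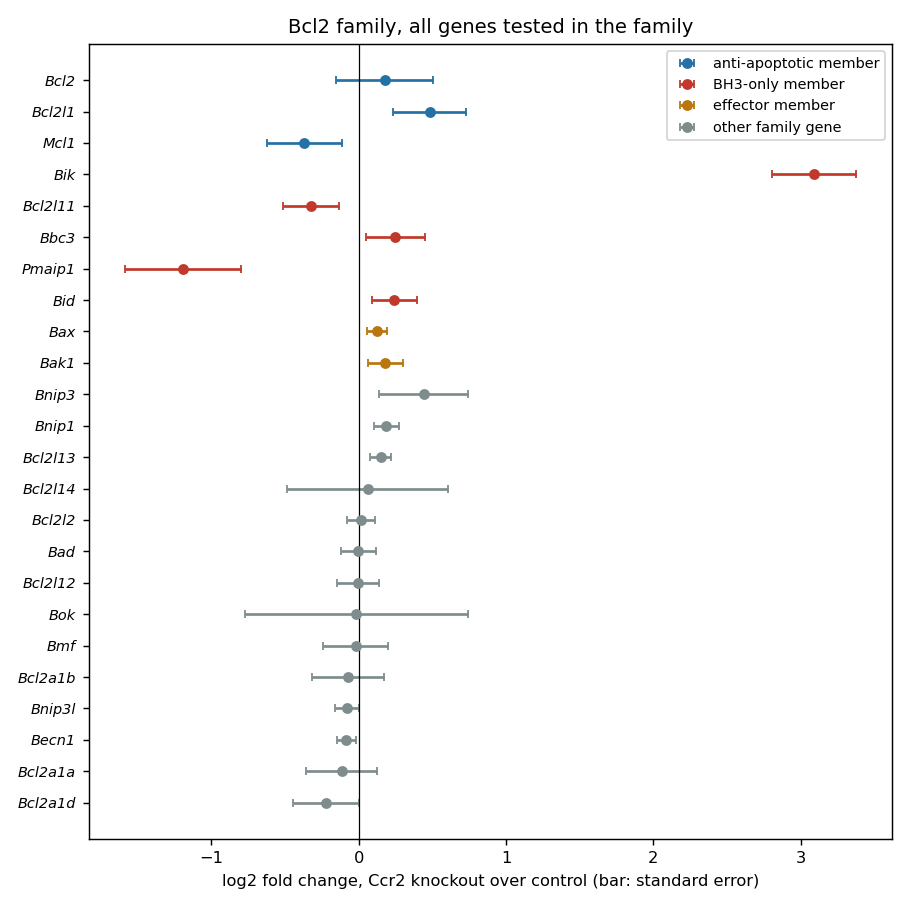
Log2 fold change of knockout over control macrophages for the 10 members, coloured by role, and for the 14 other Bcl2 family genes tested, in grey, with bars of 1 SE from the edgeR fit. Bik lies at 3.09, Pmaip1 at -1.19, and every other gene lies between -0.37 and 0.48.

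Compared per kilobase of exon, so that genes of different length can be set side by side, the order of the members was alike in both genotypes except for Bik, Pmaip1, Bid and Bcl2. In knockout macrophages it ran from Mcl1 at 235 CPM per kb through Bak1 (55.0), Bax (49.5), Bcl2l1 (36.9), Bid (10.01), Bcl2l11 (7.36), Pmaip1 (6.75), Bbc3 (6.38) and Bik (3.76) to Bcl2 (1.18). In control macrophages it ran from Mcl1 at 303 CPM per kb through Bak1 (48.5), Bax (45.4), Bcl2l1 (26.5), Pmaip1 (15.5), Bcl2l11 (9.21), Bid (8.47), Bbc3 (5.37) and Bcl2 (1.04) to Bik (0.440). In knockout libraries Bak1, Bax and Bcl2l1 each overlapped its neighbour in this order, as did Bid, Bcl2l11, Pmaip1 and Bbc3, while Bik lay below all values of Bbc3 and above all values of Bcl2. In control libraries Bak1 overlapped Bax, and Bcl2l1, Pmaip1, Bcl2l11, Bid and Bbc3 each overlapped its neighbour, while all values of Bik lay below those of Bcl2. Bik was the least abundant of the 5 BH3-only members in both genotypes. As a share of the summed level per kb of these 5 members, Bik made up 10.2%, 8.92%, 11.9%, 7.62% and 16.3% in knockout libraries 1 to 5, against 1.201%, 1.42%, 1.48%, 1.14% and 0.568% in control libraries 1 to 5. Bad and Bmf, also BH3-only genes, are not in that sum. Bad averaged 52.0 CPM in knockout libraries and 52.1 CPM in control libraries. Bmf averaged 51.0 CPM in knockout libraries and 51.7 CPM in control libraries. These lengths came from another annotation release than the counts.

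The summed level of the 5 BH3-only members stood at 9.85%, 11.9%, 10.4%, 18.2% and 18.3% of that of the 3 anti-apoptotic members in knockout libraries 1 to 5, both per kb. In control libraries 1 to 5 it stood at 10.02%, 11.3%, 13.1%, 12.9% and 11.95%. Both sums leave out further genes of their kind, such as Bad and Bmf, and Bcl2l2 and the Bcl2a1 copies, so they are not totals of the family. Knockout libraries 4 and 5 were above every control library and the other 3 lay within or just below the control range. In those 2 libraries the anti-apoptotic sum was 167 and 177 CPM per kb, against 267 to 405 CPM per kb in control libraries, most of it Mcl1. The BH3-only sum was 30.3 to 39.6 CPM per kb in knockout libraries and 34.5 to 48.4 CPM per kb in control libraries.

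Several members varied together from library to library, which is given as a description over 10 libraries. Genes counted in the same library also share its depth and preparation. Closely alike libraries may not be independent points, and the pairs below were picked from all pairs of members for the size of their r. Mcl1 and Pmaip1 had a Pearson r of 0.886 on log2 CPM, and 0.904 after each genotype mean was taken off. Bcl2 and Bcl2l1 had an r of 0.836, and 0.894 with genotype means taken off, with control libraries 1 and 2 and knockout library 1 high in both. The effectors Bax and Bak1 had an r of 0.770, and 0.715 with genotype means taken off. Bbc3 and Bid ran opposite to each other once genotype means were taken off (r = -0.832), as did Bcl2l1 and Bbc3 (r = -0.734). Bik went with none of the other members to that degree, with r between -0.578 for Bax and 0.421 for Bcl2 with genotype means taken off. Among control libraries, the opposite run of Bbc3 and Bid followed the close pairs. Bbc3 had 7.64 and 8.45 CPM in control libraries 1 and 2, against 15.6 and 13.8 CPM in control libraries 3 and 4. Bid had 33.7 and 38.4 CPM in control libraries 1 and 2, against 24.6 and 24.3 CPM in control libraries 3 and 4.

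**Figure D3:**
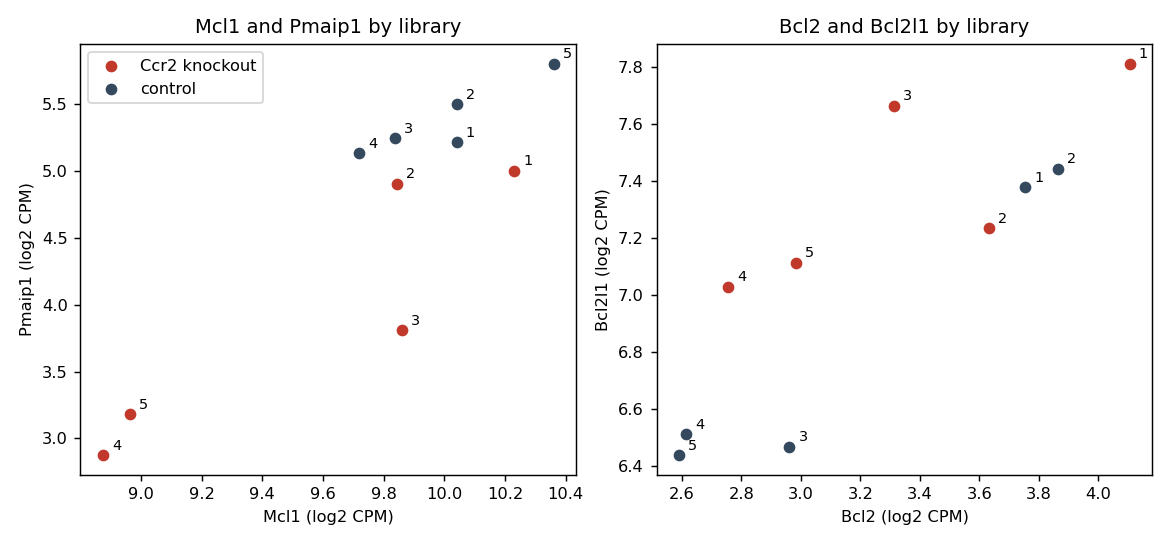
Log2 CPM of Pmaip1 against Mcl1 (left) and of Bcl2l1 against Bcl2 (right), 1 point per library with its number, Ccr2 knockout in red and control in dark blue. Knockout libraries 4 and 5 sit at the low end of the left panel, and in the right panel control libraries 1 and 2 lie among the knockout libraries, apart from control libraries 3, 4 and 5.

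The genes whose levels were most like those of Bik across the 10 libraries were Pmp22 (Pearson r = 0.979 on log2 CPM), Fam167b (0.961), Grap (0.949), Cdkn2a (0.945) and Sept8 (0.942), of 10891 genes ranked. All 5 were higher in knockout libraries, and since r over both genotypes is set largely by the difference between them, this list repeats the contrast that chose Bik. Pmp22, a membrane protein best known from myelin, averaged 264 ± 41.0 CPM in knockout libraries and 81.7 ± 8.12 CPM in control libraries. Grap, an adaptor protein of receptor signalling, averaged 14.35 ± 3.24 CPM in knockout libraries and 7.33 ± 1.05 CPM in control libraries. With genotype means taken off, the closest genes were Zfp35 (r = 0.918), Pnrc2 (0.872), Rnf113a2 (0.860), Lockd (0.849) and Zbtb38 (0.846), none of them among the first 5. These are the highest of 10891 values of r over 10 libraries, some closely alike, with low counts of Bik. Whether r this high arises by chance among so many genes was not tested. Zfp35, a zinc finger gene, shared with Bik a high value in knockout library 5 and low values in knockout library 4 and control library 5.

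**Figure D4:**
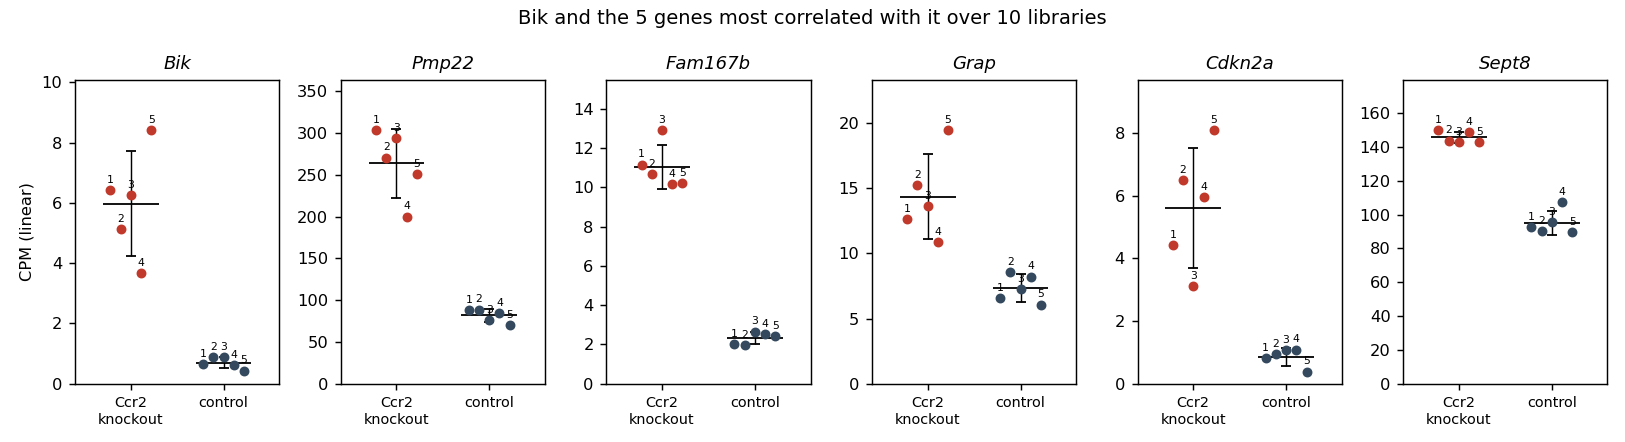
Level in CPM (linear axes that start at 0, with a different range in each panel) of Bik and of the 5 genes most correlated with it over 10 libraries, Ccr2 knockout in red and control in dark blue, with library numbers, means and bars of 1 SD over 5 libraries. In each panel all 5 knockout libraries lie above all 5 control libraries.

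Outside the 10 members, no tested gene of the Bcl2 family passed the threshold. Of 17 further family genes listed, 14 were tested, and 0 passed the threshold in edgeR, against 1.41% of all genes tested. An unadjusted p under 0.05 was found for 0 of the 14, against 15.3% of all genes tested, and 0 passed in DESeq2, against 4.55% of the genes it adjusted. Their median log2 fold change was -0.01, with 5 values above 0 and 9 below, and their edgeR adjusted p ran from 0.336 to 0.994. Hrk, another BH3-only gene, and Bcl2l10 had 0 counts in all 10 libraries and Bcl2l15 had 44 in all, so these 3 were not tested. The smallest p-values belonged to Bnip1, a protein of endoplasmic reticulum membrane fusion, at 17.3 ± 0.988 CPM in knockout libraries and 15.2 ± 0.881 CPM in control libraries, and to Bcl2l13, a mitochondrial member, at 46.5 ± 2.14 CPM in knockout libraries and 42.0 ± 2.01 CPM in control libraries. Bnip3, a mitophagy receptor induced by low oxygen, averaged 115 ± 53.1 CPM in knockout libraries and 85.0 ± 16.1 CPM in control libraries (log2 fold change 0.44, adjusted p = 0.504, and 0.18 without knockout library 2). Becn1, an autophagy protein that binds Bcl2, averaged 138 ± 3.07 CPM in knockout libraries and 146.5 ± 4.68 CPM in control libraries (log2 fold change -0.08, adjusted p = 0.552). Bcl2a1a, Bcl2a1b and Bcl2a1d, anti-apoptotic genes of myeloid cells, had log2 fold changes of -0.11, -0.07 and -0.22, which are uncertain because these near-identical copies share reads that the counts leave out.

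Downstream and upstream of the family, 1 of 73 pathway genes tested, of 74 listed, passed the threshold, a share close to the 1.41% of all genes tested. An unadjusted p under 0.05, found for 15.3% of all genes tested, was found for 7 of the 73. The 22 genes of the apoptosome, caspases and their inhibitors had a median log2 fold change of -0.04 with 0 past the threshold and 2 with an unadjusted p under 0.05. These 2 were Birc2 and Birc3, genes of the inhibitor of apoptosis family. Birc2 averaged 22.4 ± 3.88 CPM in knockout libraries and 29.6 ± 3.36 CPM in control libraries (log2 fold change -0.40, edgeR adjusted p = 0.177). Birc3 averaged 79.2 ± 19.2 CPM in knockout libraries and 108.7 ± 19.2 CPM in control libraries (log2 fold change -0.46, edgeR adjusted p = 0.244, and -0.24 without knockout libraries 4 and 5). Casp6, an executioner caspase, had a log2 fold change of -0.28 and Vdac1, a channel of the outer mitochondrial membrane, had 0.21. The 14 death receptor and necroptosis genes had a median of -0.08, with 0 past the threshold and 0 with an unadjusted p under 0.05. Of these, Tnfaip3, an inhibitor of NF-kappaB signalling, averaged 352.6 ± 243 CPM in knockout libraries and 566 ± 228 CPM in control libraries, and without knockout libraries 4 and 5 its log2 fold change was -0.09 in place of -0.68. Zbp1, a sensor that starts necroptosis, also had a log2 fold change of -0.68, and Fadd, the adaptor of death receptors, had 0.12, which was 0.06 without knockout libraries 4 and 5. Fasl, a death receptor ligand of lymphocytes, was at 0 to 0.770 CPM in knockout libraries and 0.0972 to 1.53 CPM in control libraries.

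Of 21 genes of p53 and its targets, 20 were tested, with a median log2 fold change of -0.03. Of these 20, 0 passed in edgeR, and 2 had an unadjusted p under 0.05, against 15.3% of all genes tested. Zmat3, an RNA-binding p53 target, had 10.9 to 14.6 CPM in knockout libraries and 8.18 to 11.3 CPM in control libraries (log2 fold change 0.46, SE 0.12, edgeR adjusted p = 0.106), and it passed in DESeq2 (adjusted p = 0.0254). Btg2, an antiproliferative p53 target, averaged 134 ± 79.6 CPM in knockout libraries and 272.5 ± 70.8 CPM in control libraries, with knockout libraries 4 and 5 lowest at 47.9 and 57.9 CPM. Its log2 fold change was -1.02 (edgeR adjusted p = 0.264), and -0.52 without those libraries. Cdkn1a, the cell cycle inhibitor that p53 induces, averaged 229.6 ± 87.0 CPM in knockout libraries and 337.5 ± 109 CPM in control libraries (log2 fold change -0.56, adjusted p = 0.365), and the log2 fold change was -0.24 without knockout libraries 4 and 5 and -0.32 without control library 5. Gtse1, a mitotic gene that restrains p53, had a log2 fold change of 0.57.

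Of 17 known regulators of these genes and proteins, Cdkn2a passed the threshold, 1 of 17 against 1.41% of all genes tested. The lists were chosen with earlier results of these data known, so nothing is read from that count. Cdkn2a encodes a cell cycle inhibitor and, in another reading frame, Arf, an inhibitor of Mdm2, and the gene counts do not separate these products. It had 4.44, 6.498, 3.12, 5.97 and 8.09 CPM in knockout libraries 1 to 5, against 0.823, 0.939, 1.09, 1.09 and 0.389 CPM in control libraries 1 to 5, so the groups did not overlap. The log2 fold change of Cdkn2a was 2.70 (SE 0.34, edgeR adjusted p = 0.00422). The call ended with closely alike control libraries summed (adjusted p = 0.0613), with knockout libraries 4 and 5 summed as well (0.136), and with the title number as a replicate block (0.0715). Over all 19 alternatives its adjusted p ran from 8.84e-14 to 0.136. E2f1, a transcription factor known in human cells to induce BIK, averaged 66.4 ± 10.6 CPM in knockout libraries and 52.2 ± 10.2 CPM in control libraries (log2 fold change 0.35, adjusted p = 0.300, and 0.22 without knockout libraries 4 and 5). Pim1, a survival kinase, averaged 189.6 ± 110 CPM in knockout libraries and 398.7 ± 125 CPM in control libraries (log2 fold change -1.07, adjusted p = 0.180), and without knockout library 2 it passed (adjusted p = 0.047). Without knockout libraries 4 and 5 the log2 fold change of Pim1 was -0.66 (adjusted p = 0.453). Ddit3, a stress factor that induces Bim, had a log2 fold change of -0.36.

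Most classical monocyte markers were lower in the macrophages in which Bik was higher. Of 10 classical monocyte markers tested besides Ccr2, 7 passed the threshold lower in knockout macrophages. Among all genes tested, 0.543% passed lower and 0.87% higher, which are the shares beside every marker count here. The lists were chosen with earlier results of these data known, so nothing is read from these counts. The summed level of the classical monocyte markers besides Ccr2 was 862 to 2218 CPM in knockout libraries and 1218 to 3131 CPM in control libraries. Most of that sum was F13a1, a coagulation factor subunit, at 828 to 2090 CPM in knockout libraries and 679 to 1655 CPM in control libraries. The sum does not show the lower levels of Ly6c2, at 1.21 to 8.41 CPM in knockout libraries and 59.0 to 109 CPM in control libraries, and Chil3, at 1.59 to 16.6 CPM in knockout libraries and 181 to 966 CPM in control libraries. The mean log2 level of these markers had a Pearson r of -0.920 with Bik over the 10 libraries, and of -0.02 after genotype means were taken off. Endothelial markers summed to 20.02 to 31.6 CPM in knockout libraries and 33.0 to 85.4 CPM in control libraries without overlap, and 0 of 6 passed. Among single genes tested, 2.02% had every knockout library lower without overlap. Pecam1 did so, at 5.59 to 13.2 CPM in knockout libraries and 15.3 to 61.7 CPM in control libraries. Cdh5 and Kdr overlapped, and the remaining endothelial markers reached at most 1.353 CPM. Neutrophil markers summed to 115 to 213 CPM in knockout libraries and 162 to 550 CPM in control libraries, with 0 of 8 past the threshold. A large part of that sum was Csf3r, at 75.6 to 129.9 CPM in knockout libraries and 144.6 to 177.4 CPM in control libraries. Dendritic cell markers summed to 10.8 to 31.3 CPM in knockout libraries and 24.6 to 60.4 CPM in control libraries, with 1 of 10 past it, Dpp4, which was lower in knockout macrophages. Proliferation genes summed to 1094 to 1711 CPM in knockout libraries and 613 to 1600 CPM in control libraries, and their mean log2 level had an r with Bik of 0.638, and of 0.607 with genotype means taken off. Macrophage markers had the r with Bik of largest size with genotype means taken off, -0.661, and -0.412 before. Sums of macrophage, fibroblast, T and NK cell, B and plasma cell, keratinocyte, and mast cell and basophil markers overlapped between the genotypes. Of 17 T and NK cell markers tested, 16 had log2 fold changes below 0, and 0 passed lower. Cd4 passed higher, at 86.5 to 184.5 CPM in knockout libraries and 47.2 to 75.2 CPM in control libraries, a large part of that sum. Of 10 fibroblast markers 9 were below 0 and 0 passed. Of 12 macrophage markers 6 were below 0, and 1 passed, higher in knockout macrophages. Melanoma markers summed to 31.2 to 59.95 CPM in knockout libraries and 33.0 to 57.3 CPM in control libraries, with 1 of 4 past the threshold, Trpm1, which was higher in knockout macrophages. Trpm1 was low in both, at 0.679 to 1.56 CPM in knockout libraries and 0.17 to 0.478 CPM in control libraries. Most of the melanoma sum was Sox10 and Mitf, with Mitf at 15.3 to 23.4 CPM in knockout libraries and 13.1 to 28.1 CPM in control libraries. Of the melanoma markers, Mlana and Tyr had 0 counts in every knockout library and at most 0.106 CPM in a control library, while Sox10 had 13.9 to 34.1 CPM in knockout libraries and 3.57 to 40.5 CPM in control libraries. The part of these cells in the level of Bik was not tested.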

How the data were processed

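RNA of 10 libraries was sequenced from directional libraries of sorted F4/80+ cells, per the labels' protocols. The authors deposited whole-number read counts per gene and library, with STAR as aligner and GRCm39 as genome per the submitters' processing notes. Neither the version of STAR nor the annotation is given in the sources used. The reverse-strand column was used, since 96.2% to 96.5% of stranded counts fell in it. Entries that name no gene, 12.6% to 15.4% of reads, entered neither library sizes nor tests. The 10 unnamed columns of a combined table were not used. The control group follows the genotype label. The members and gene lists were chosen with earlier results of these data known. The test of each gene was that of edgeR 4.0.16 under R 4.3.3 (quasi-likelihood F-test, filterByExpr with a minimum count of 10, TMM, Benjamini-Hochberg adjustment over all 14374 genes, threshold 0.05), which was tested on simulated data. The SE is the log2 fold change divided by the square root of F. Log2 CPM used a prior count of 2, and marker means log2 of CPM plus 0.5. Closeness of libraries was the chi-square of their counts per gene, each with 1 degree of freedom. BH3 sequences and exon lengths came from GENCODE M21 on GRCm38, a different build from that of the counts. Named genes were the members, Ccr2, every listed family or pathway gene past the threshold or otherwise up to 4 per list with the smallest p, the neighbours of Bik, and the 5 genes of at least 2 CPM most correlated with Bik by either measure; the markers named singly were chosen after their values were seen. Alternatives were DESeq2 1.42.0, its size factors in edgeR, no filter, unstranded counts, a filter of 1 CPM in 5 libraries, a replicate block by title number, each library left out in turn, closely alike libraries summed, and knockout libraries 4 and 5 left out. Figures were drawn with matplotlib 3.10.9.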

Additional observations from a re-analysis of the deposited data

Results flagged for a closer look

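Of 84 groups of 5 libraries checked over the members and named genes, 6 held a library whose gap to the nearest other was large for the range of its group by Dixon's criterion, where chance gives about 1 in 20. Fasl was at 0.770 CPM in knockout library 2, with the next knockout library at 0.152 CPM. The other 5 were all in control library 5. Bcl2l11 was at 113 CPM there, with the next control library at 72.7 CPM. Tnfaip3 was at 956 CPM, with the next at 546 CPM. Cdkn1a was at 528 CPM, with the next at 325 CPM. Pim1 was at 618 CPM, with the next at 366 CPM. Pnrc2 was at 64.9 CPM, the lowest, with the next at 78.7 CPM. What sets control library 5 apart was not tested.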

How the results depend on the processing

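The log2 fold change of Bik, a description because the gene was chosen by it, lay between 2.94 and 3.23 under all 19 alternatives, and with the title number as a replicate block it was 3.07. No direction of a called value reversed. The count of all genes past the threshold was 203, against 799 with DESeq2, 55 with the replicate block, 29 with closely alike control libraries summed, 50 without knockout libraries 4 and 5, 8 with control pairs and knockout libraries 4 and 5 summed, and 62 to 267 with 1 library left out. It was 107 and 92 without knockout library 4 or 5, and 77, 62, 101 and 77 without control library 1, 2, 3 or 4. The last summing was added after the data were seen. The cause was not tested, beyond the fewer libraries that summing leaves. Of the 55 genes called with the block, 50 were also called without it. Same-numbered libraries did not deviate together (r from -0.529 to 0.344 over 5 pairs, and 1 of 5 control libraries correlated best with its own number), so the numbers were not treated as pairs. The count of pathway genes was 1, against 2 with DESeq2, 0 with the block, 0 with control pairs summed, 0 with both sums, and 1 to 2 with 1 library left out. The other family genes stayed at 0 past the threshold under all 19 alternatives. Of the members besides Bik, 0 passed except Pmaip1 with DESeq2. Of the named pathway genes, Zmat3 and Pim1 gained the threshold under 1 setting each and Cdkn2a lost it under 3, and of the members Bcl2 changed sign under 1. The low counts of Bik and of Fasl limit the precision of both.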
